A study of Mus musculus with 8 samples.

Results

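The proteasome genes described here are the 50 gene symbols, of 21049 listed, that begin with Psma to Psmg and a number. They were matched by name, and were chosen with earlier results of these data known. Of these, 48 had a mean of at least 1 FPKM (fragments counted per unit of gene length and of library size) over the 8 samples and were tested. The other two were Psma8, the testis form of an outer ring subunit, and Psmc3ip, a meiotic recombination factor that carries the symbol but is no proteasome subunit. Psma8 stood at 0.0255 to 0.453 FPKM in controls and 0.324 to 0.466 FPKM with alcohol, and Psmc3ip at 0.116 to 0.436 and 0.0480 to 0.158 FPKM. Psme3ip1, a binding partner of an activator subunit, was tested but is likewise no subunit.

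The proteasome is the barrel-shaped protease that destroys ubiquitin-tagged proteins. Its 20S core stacks an outer ring of alpha subunits on each side of paired inner rings of beta subunits, and Psmb5, Psmb6 and Psmb7 carry the constitutive active sites. Interferon induces Psmb8, Psmb9 and Psmb10, which take the places of Psmb5, Psmb6 and Psmb7 in newly built immunoproteasomes and favour peptides for MHC class I. The 19S regulatory particle caps the core. Its base holds the Psmc ATPases, which unfold substrates, and its lid removes ubiquitin. Hepatocytes hold mainly the constitutive form, and blood cells much of the immune form.

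The study compared wild-type (WT) C57BL/6 mice given saline (4 control samples) with mice given alcohol (4 samples), with liver as the labelled tissue of all 8. The labels give no age, dose or length of feeding. They also name the hepatocyte line AML12, yet transcripts of other liver cells were present: the Kupffer cell gene Clec4f stood at 10.6 ± 5.09 FPKM and the sinusoidal gene Clec4g at 9.95 ± 2.07 FPKM (SD, n = 4) in controls, beside 36840 ± 1362 FPKM of the hepatocyte gene Alb. No label ties the samples to separate animals, so each p-value here reflects only sample-to-sample spread. In such mixed tissue, fewer cells of a type and less RNA per cell cannot be told apart. Library totals recovered from the FPKM values were 33872595 to 34789814 reads in controls and 37132631 to 38407511 reads with alcohol, of which the 50 genes took 101127 to 114788 reads per library. Control replicate 1 stood apart from the other controls, with 183 to 234 as its chi-square per gene against 56.6 to 89.3 among the other three, and alcohol replicates 2 and 4 were the closest pair (10.1).

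The upstream windows of 4 core genes are shown because Psmb3 had the largest fall among the constitutive subunits, Psmb5 and Psmb6 are the constitutive partners of Psmb8 and Psmb9, and Psmb10 is an immunoproteasome gene. Each runs 5′ to 3′ and ends where the first annotated exon begins or at the RefSeq gene start. The sequences are from RefSeq on GRCm38.p6. Capitals mark matches, on either strand, to TGACNNNGC (the core of the antioxidant response element), GAAA, any 2 bases and GAAA (the core of the interferon-stimulated response element) or CCAAT (the NF-Y box). The motifs did not overlap in these windows.
Psmb3, chr11:97703184-97703398, plus strand: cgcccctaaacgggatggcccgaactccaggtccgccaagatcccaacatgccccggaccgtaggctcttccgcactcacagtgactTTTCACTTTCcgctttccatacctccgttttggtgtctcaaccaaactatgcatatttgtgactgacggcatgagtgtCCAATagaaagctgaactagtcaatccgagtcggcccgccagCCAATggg
Psmb5, chr14:54618023-54618245, minus strand: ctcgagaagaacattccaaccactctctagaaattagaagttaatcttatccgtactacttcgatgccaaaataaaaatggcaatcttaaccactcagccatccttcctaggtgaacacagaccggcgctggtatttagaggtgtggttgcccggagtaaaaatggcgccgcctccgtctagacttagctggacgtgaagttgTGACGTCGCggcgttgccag
Psmb6, chr11:70525107-70525356, plus strand: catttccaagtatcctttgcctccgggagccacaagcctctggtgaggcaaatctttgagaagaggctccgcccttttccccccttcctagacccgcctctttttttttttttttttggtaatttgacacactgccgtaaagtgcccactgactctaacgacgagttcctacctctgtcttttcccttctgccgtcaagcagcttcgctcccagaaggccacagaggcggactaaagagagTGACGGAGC
Psmb10, chr8:105938445-105938642, minus strand: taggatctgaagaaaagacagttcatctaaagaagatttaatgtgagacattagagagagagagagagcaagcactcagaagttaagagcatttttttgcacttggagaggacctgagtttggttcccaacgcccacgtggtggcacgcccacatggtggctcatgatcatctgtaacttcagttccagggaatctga
The windows of Psmb8 and Psmb9 lie within annotated exons and are not printed. Over the 250 bases before the RefSeq gene start, TGACNNNGC was found in 5 of 42 matched proteasome genes (Psmb5, Psmb6, Psmc6, Psmd12 and Psmd9), or 11.9%, against 11.5% of 27025 genes. The interferon-stimulated core was found in 3 of 42 (Psmb3, Psmd4 and Psmd9), or 7.14%, against 3.46%, and CCAAT in 15 of 42, or 35.7%, against 37.5%. These are letter matches only. For Psmb8 and Psmb9 the window lies inside the GENCODE gene, so the bases upstream of that gene were not searched. The same holds for Psmd5, Psmd9, Psmd13, Psme1 and Psmf1.

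With alcohol the 20S core and the immunoproteasome subunits lay lower, while the 17 genes of the 19S particle held 3 rises and 4 falls. Of the 48 tested genes, 18 fell and 6 rose by limma on log2(FPKM + 1), with adjusted p under 0.05 over 9228 genes. Of all genes tested, 13.0% fell and 44.2% rose, so the share of falls among proteasome genes (37.5%) was above the background and the share of rises (12.5%) below it. The groups did not overlap for 16 proteasome genes with alcohol below and 5 with alcohol above, against 10.7% and 39.5% of all genes. The median log2 change (alcohol minus control) was -0.17 for the 48 genes and 0.24 for all genes. Because most genes lay higher on this scale, scaling matters. With median-of-ratios scaling, which centres the samples, 31 fell and 3 rose (26.5% and 25.9% of all genes). On the TPM scale 15 fell and 12 rose (8.82% and 52.7%), and with a gene length trend removed 16 fell and 15 rose (12.5% and 44.5%). With quantile normalization 23 fell and 5 rose (25.0% and 24.1%). The 14 core genes held no rise under any of these 4 scalings, and 14 falls with median-of-ratios scaling, 8 with quantile normalization and 6 under each of the other two. The balance within the 19S particle moved with the scaling: it held 1 rise and 8 falls with median-of-ratios scaling, 3 and 6 with quantile normalization, 7 and 3 on the TPM scale and 8 and 4 with the length trend removed. The median of the 48 genes minus that of all genes was -0.42 in the deposited values and -0.46 to -0.21 under the other 4 scalings.

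**Figure D1:**
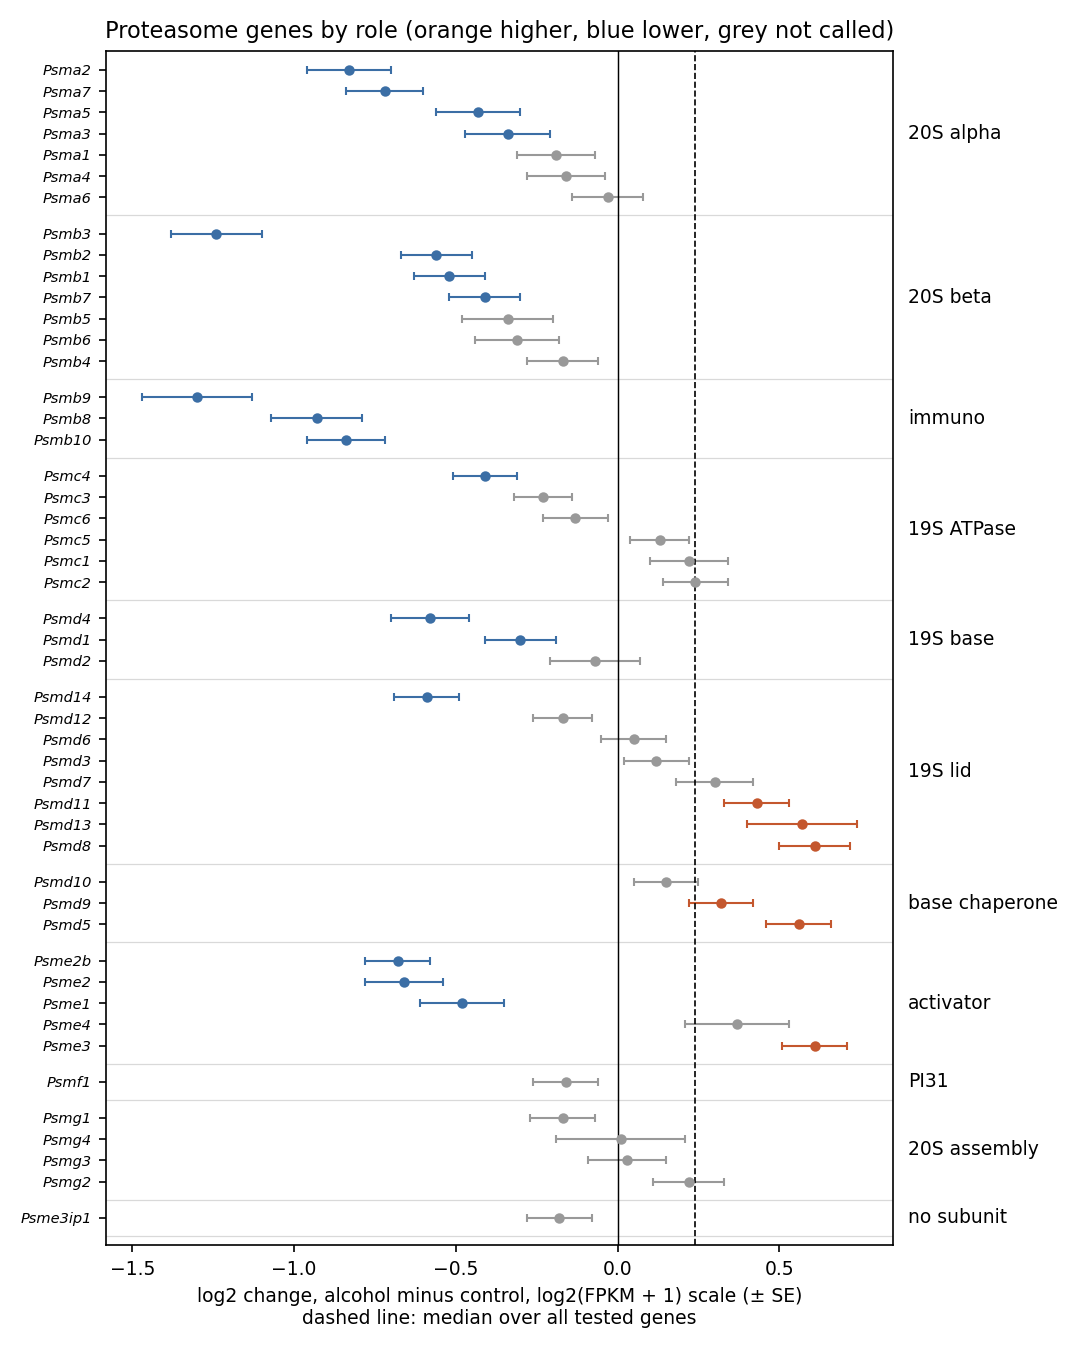
Log2 change (alcohol minus control, log2(FPKM + 1) scale) with its standard error for the 48 tested proteasome genes, grouped by role; blue genes fell, orange genes rose and grey genes did not pass. All 17 core and immunoproteasome genes lie left of 0, and the rises sit in the lid, the base chaperones and the activators.

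The immunoproteasome subunits had the lowest median log2 change of the roles, -0.93, and all 3 fell. Psmb9, which takes the place of Psmb6, stood at 9.22, 17.5, 15.1 and 12.3 FPKM in control replicates 1 to 4 and at 5.42, 5.36, 4.23 and 4.18 FPKM in alcohol replicates 1 to 4. Every alcohol sample lay below every control. The means were 13.5 ± 3.58 and 4.80 ± 0.686 FPKM (SD, n = 4), and the log2 change was -1.30 ± 0.17 (SE; limma adjusted p = 0.000146). Psmb8, which takes the place of Psmb5, stood at 21.1, 27.8, 28.1 and 23.6 in controls and 11.5, 16.0, 11.1 and 12.5 FPKM under alcohol. The groups again did not overlap, and the log2 change was -0.93 ± 0.14 (limma adjusted p = 0.000267). Psmb10, which takes the place of Psmb7, stood at 23.7, 29.4, 26.8 and 28.2 in controls and 13.3, 17.2, 12.8 and 15.3 FPKM under alcohol. Its alcohol samples also lay below all controls, with a log2 change of -0.84 ± 0.12 (limma adjusted p = 0.000191). Psmb9 lies on chromosome 17 from 34181987 to 34187764 (minus strand), Psmb8 on chromosome 17 from 34197721 to 34201454 (plus strand) and Psmb10 on chromosome 8 from 105935735 to 105938444 (minus strand) in GENCODE M21 on GRCm38. All are protein-coding. Exons of Psmb9 overlap Tap1 and exons of Psmb8 overlap Gm20496 on the opposite strand, and whether counting used strand is unknown, so a part of their reads may belong to the partner.

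**Figure D2:**
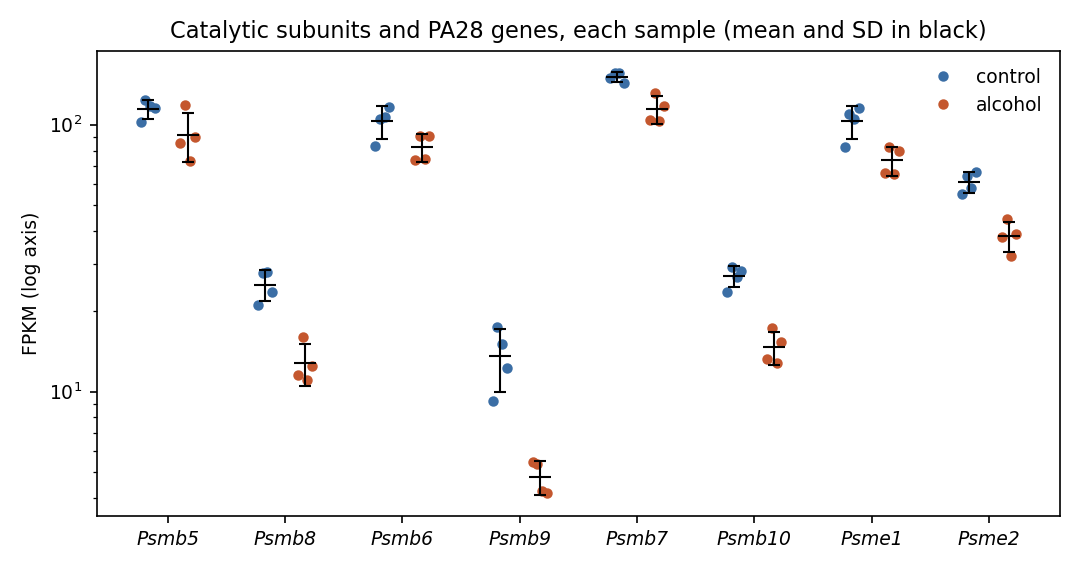
FPKM (log axis) of the constitutive catalytic subunits, the immunoproteasome subunit that takes the place of each, and the PA28 genes Psme1 and Psme2; points are the 4 control and 4 alcohol samples, black marks the mean and SD. Groups are separate for Psmb8, Psmb9, Psmb10, Psmb7 and Psme2 and overlap for Psmb5, Psmb6 and Psme1.

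The constitutive partners of these subunits were lower by less. Psmb5, the chymotrypsin-like site, stood at 102, 124, 117 and 115 in controls and 85.6, 118, 72.9 and 89.8 FPKM under alcohol. Alcohol replicate 2 lay among the controls, and the log2 change of -0.34 ± 0.14 did not pass (limma adjusted p = 0.0675). Psmb6, the caspase-like site, stood at 82.9, 105, 107 and 116 in controls and 73.5, 90.7, 74.2 and 90.8 FPKM under alcohol. Control replicate 1 lay among the alcohol samples, and the change of -0.31 ± 0.13 did not pass either (limma adjusted p = 0.0629). Without control replicate 1 both passed, at -0.39 and -0.41 (limma adjusted p = 0.0496 and 0.0124). Both also passed with median-of-ratios scaling, at -0.64 and -0.61. Neither passed on the TPM scale (-0.19 and -0.17) or with quantile normalization (-0.22 and -0.21). With the gene length trend removed Psmb5 and Psmb6 were at -0.0 and -0.04 (limma adjusted p = 0.995 and 0.648). Psmb7, the trypsin-like site, fell from 149, 156, 157 and 143 FPKM to 104, 132, 103 and 118 FPKM, with no overlap (log2 change -0.41 ± 0.11, limma adjusted p = 0.00906). Its exons overlap Nek6 on the opposite strand. With the gene length trend removed the value for Psmb7 was -0.12, short of the threshold (limma adjusted p = 0.273), while all 3 immunoproteasome subunits still fell.

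Within each pair the share of the immunoproteasome subunit was lower under alcohol. A ratio of this kind is taken inside each library and hardly depends on a scaling by 1 factor per library. The ratios were not run with quantile normalization or with the gene length trend removed. Psmb8 made up 17.1%, 18.3%, 19.4% and 17.03% of the summed FPKM of Psmb8 and Psmb5 in controls and 11.8%, 11.9%, 13.2% and 12.2% with alcohol. Psmb9 made up 10.02%, 14.3%, 12.4% and 9.56% of its pair with Psmb6 in controls and 6.87%, 5.58%, 5.39% and 4.40% with alcohol. Psmb10 made up 13.7%, 15.8%, 14.6% and 16.4% of its pair with Psmb7 in controls and 11.3%, 11.6%, 11.01% and 11.5% with alcohol. The groups did not overlap in any of the 3 pairs. The log2 ratio, with 1 FPKM added to each gene, went from -2.15 ± 0.10 to -2.74 ± 0.09 (SD, n = 4), a difference of -0.59, for Psmb8 over Psmb5. It went from -2.86 ± 0.28 to -3.84 ± 0.25 for Psmb9 over Psmb6 and from -2.45 ± 0.13 to -2.88 ± 0.03 for Psmb10 over Psmb7. Each had an exact 2-sided permutation p of 0.0286 (0.0286 adjusted over the 3 ratios), the smallest that 4 against 4 samples can give.

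**Figure D3:**
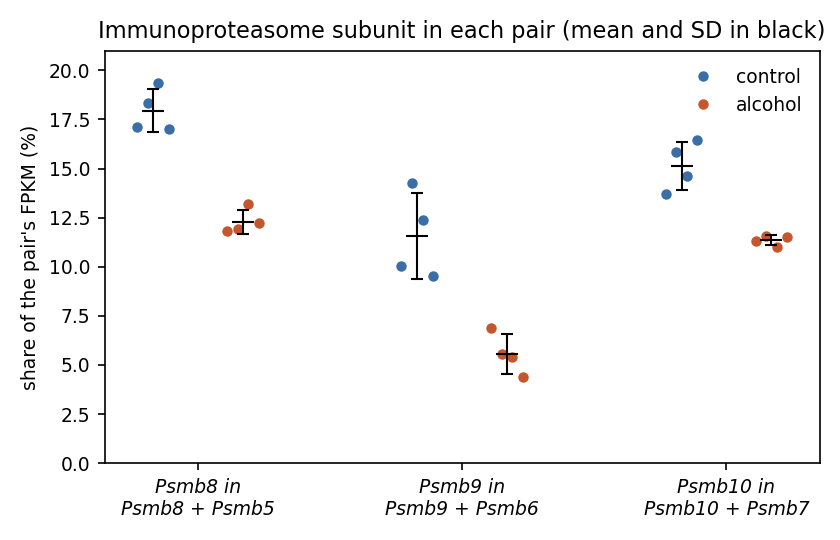
Share (%) of each catalytic pair's FPKM that came from the immunoproteasome subunit, by sample, with mean and SD in black. The alcohol samples sit below all controls in each pair, at means of 12.3%, 5.56% and 11.4% against 18.0%, 11.6% and 15.2%.

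Genes that signal interferon and leukocyte genes were measured beside the immunoproteasome. Of 13 tested interferon regulators 4 fell and 3 rose, with a median log2 change of -0.19. The balance moved with the scaling. With median-of-ratios scaling 8 fell and 2 rose (26.5% and 25.9% of all genes). With quantile normalization 10 fell and 2 rose (25.0% and 24.1%). Irf7, a transcription factor induced by interferon, fell from 19.5 ± 0.511 to 8.49 ± 0.497 FPKM (SD, n = 4 per group), and Irf2 and Irf9 also fell. The receptor chain Ifngr1 rose from 6.44 ± 1.43 to 12.6 ± 0.911 FPKM and the kinase Jak1 from 11.9 ± 2.32 to 22.3 ± 3.78 FPKM, and Ifngr2 was the other rise. The rise of Ifngr2 was lost with median-of-ratios scaling and quantile normalization. Irf1, a direct activator of Psmb9, stood at 5.22 ± 1.49 and 4.59 ± 0.612 FPKM and did not pass (limma adjusted p = 0.542). With quantile normalization Irf1 passed as lower (-0.44, limma adjusted p = 0.0391). Of 9 antigen processing partners 2 fell and none rose: B2m, the light chain of MHC class I, from 2786 ± 579 to 1548 ± 194 FPKM, and the peptide-loading chaperone Pdia3 from 156 ± 10.6 to 89.1 ± 10.97 FPKM. In the deposited values both lists were read against the 13.0% of all genes that fell and the 44.2% that rose. Of the antigen processing partners 5 fell with median-of-ratios scaling and 4 with quantile normalization, and none rose under either. On the TPM scale 2 of them fell and 1 rose (8.82% and 52.7% of all genes).

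Tap1, the peptide transporter gene that lies head to head with Psmb9, did not pass. It stood at 4.61 ± 0.653 in controls and 4.95 ± 0.562 FPKM under alcohol, with a log2 change of 0.09 ± 0.11 (limma adjusted p = 0.523) that turned to -0.16 with median-of-ratios scaling and -0.22 with quantile normalization. The difference between Tap1 and Psmb9 was not tested.

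Some pan-leukocyte genes were lower beside the immunoproteasome, and their part in its fall was not tested. Of 4 tested pan-leukocyte genes (of 5 in the list) Coro1a, Cd52 and Rac2 fell (13.0% of all genes fell), and the summed list ran from 16.1 to 25.1 FPKM in controls and from 7.72 to 13.0 FPKM with alcohol. Cd52 made up most of that sum, at 11.5 ± 3.04 and 5.47 ± 1.55 FPKM, and the call of Rac2 was lost on the TPM scale (limma adjusted p = 0.06). Laptm5 did not pass, at 3.19 ± 1.32 and 3.08 ± 0.506 FPKM (limma adjusted p = 0.973), and Ptprc lay under the minimum, with overlapping groups. The 5 B cell markers all lay under the minimum, at sums of 1.60 to 2.62 and 0.179 to 0.627 FPKM, with Ms4a1 at 0 in 1 alcohol sample. The 5 listed T cell markers also lay under it, at 1.07 to 2.02 and 0.585 to 2.22 FPKM, as did the 5 dendritic cell markers, at 0.634 to 0.956 and 0.339 to 0.560 FPKM. Of the 7 Kupffer cell and macrophage markers 4 were tested and none passed, with sums of 18.8 to 70.8 FPKM in controls and 23.4 to 45.5 FPKM with alcohol. The 4 neutrophil markers summed to 2.59 to 4.50 and 1.45 to 34.6 FPKM, with Ly6g and Retnlg at 0 in some samples, and neither of the 2 tested passed. The highest sum was that of alcohol replicate 1, where S100a8 stood at 13.7 FPKM and S100a9 at 18.4 FPKM. In the other alcohol samples they reached at most 1.24 and 2.88 FPKM. All 5 endothelial markers rose (44.2% of all genes rose), from sums of 10.9 to 17.3 FPKM to 51.5 to 60.5 FPKM. The rise of Stab2 was lost with quantile normalization (limma adjusted p = 0.138). Among 5 hepatocyte markers 2 fell and 1 rose, against 13.0% and 44.2% of all genes. Their sums overlapped, at 54820 to 63110 and 50860 to 59730 FPKM. The hepatocyte rise, Cps1, was lost with the gene length trend removed, median-of-ratios scaling and quantile normalization.

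The constitutive 20S core was lower as a whole, unevenly. All 14 alpha and beta genes had a negative log2 change, from -1.24 to -0.03 with a median of -0.38, and 8 of them fell (13.0% of all genes fell). None rose. The sign turned in Psma1, Psma4, Psma6 and Psmb4 under at least 1 other scaling, and none of these 4 passed in the deposited values. Psmb3, a non-catalytic inner ring subunit, had the largest fall of the core, from 105, 159, 148 and 139 FPKM in controls to 53.9, 65.9, 50.3 and 59.5 FPKM with alcohol. The groups lay far apart, and the log2 change was -1.24 ± 0.14 (limma adjusted p = 6.23e-05). Psmb2 fell from 71.4 ± 7.51 to 47.9 ± 2.61 FPKM and Psmb1 from 145 ± 10.7 to 101 ± 9.95 FPKM, both inner ring subunits without an active site. Psmb4, the remaining inner ring subunit, stood at 133 ± 6.78 and 119 ± 14.6 FPKM and did not pass (limma adjusted p = 0.209).

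In the outer ring, whose subunits gate the entry of substrates, 4 of 7 alpha genes fell (13.0% of all genes fell). On the TPM scale 2 fell, with the gene length trend removed 3, with quantile normalization 4 and with median-of-ratios scaling all 7. Of all genes 8.82%, 12.5%, 25.0% and 26.5% fell under these settings, in the same order. Psma2 stood at 70.6, 98.3, 82.0 and 88.6 in controls and 45.4, 54.7, 40.4 and 48.8 FPKM under alcohol, with no overlap and a log2 change of -0.83 ± 0.13 (limma adjusted p = 0.000425). Psma7 stood at 53.4, 72.9, 62.9 and 67.2 in controls and 36.8, 41.5, 33.6 and 42.3 FPKM under alcohol, again with no overlap (-0.72 ± 0.12, limma adjusted p = 0.000686). Psma5 fell from 44.2 ± 4.08 to 32.9 ± 5.38 FPKM and Psma3 from 25.0 ± 3.48 to 19.5 ± 2.54 FPKM, each with overlapping groups. The call of Psma5 was lost on the TPM scale and with the gene length trend removed. The call of Psma3 was lost under 8 of 18 alternatives, including without control replicates 1, 2 or 3 and without alcohol replicates 1, 3 or 4. Psma1, Psma4 and Psma6 did not pass, with log2 changes from -0.19 to -0.03. Psma6 was the least changed, at 89.7 ± 9.60 and 87.6 ± 6.92 FPKM.

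As a share of all reads, the 14 core genes took 0.128%, 0.155%, 0.146% and 0.139% in controls and 0.102%, 0.120%, 0.0931% and 0.113% with alcohol. The 17 genes of the 19S particle took 0.129%, 0.120%, 0.127% and 0.117% in controls and 0.127%, 0.132%, 0.118% and 0.128% with alcohol, and these overlapped. By reads, the core thus went from a larger share than the 19S particle in 3 of 4 controls to a smaller one in all 4 alcohol samples. Read counts also depend on gene length, and by summed FPKM the core stayed above the 19S particle in every sample. The sums were 1176 to 1430 against 673 to 722 FPKM in controls and 849 to 1098 against 666 to 758 FPKM with alcohol. The mean read share of the core with alcohol was 0.752 times that of controls, that of the 3 immunoproteasome genes 0.490 times and that of the 19S genes 1.025 times. Within the alcohol group, replicate 3 was the lowest sample for 12 of the 14 core genes and 13 of the 17 19S genes, against 26.4% of all genes tested.

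**Figure D4:**
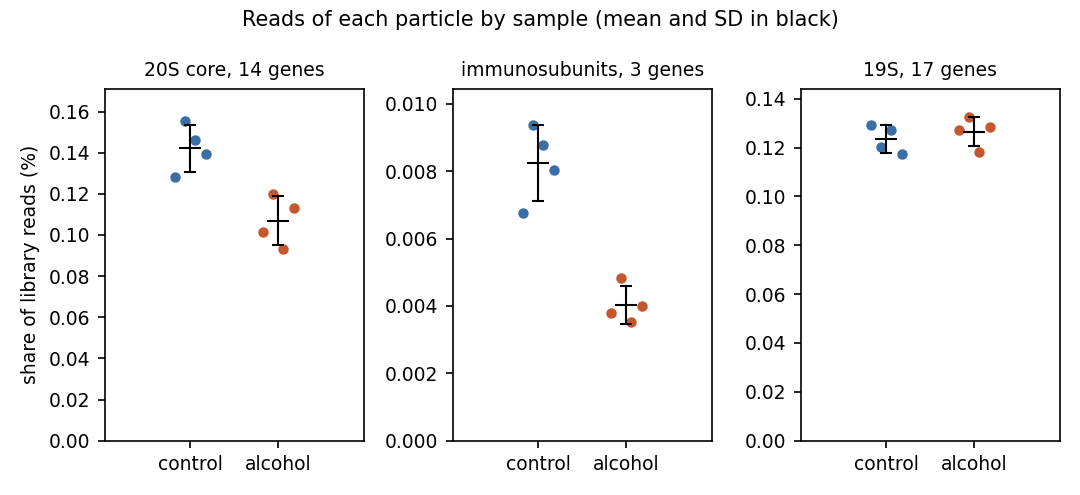
Share of library reads (%) taken by the 14 constitutive 20S genes, the 3 immunoproteasome genes and the 17 genes of the 19S particle, by sample, with mean and SD in black and axes from 0. The core and immunoproteasome groups are separate, and the 19S groups overlap.

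The 6 ATPases of the 19S base, the ring that unfolds substrates, held 1 fall (16.7%) and no rise, against 13.0% and 44.2% of all genes. They held 3 rises and 1 fall on the TPM scale or with the gene length trend removed. With median-of-ratios scaling or quantile normalization they held 3 falls and no rise. Over all genes the rises under these settings, in order, were 52.7%, 44.5%, 25.9% and 24.1%. The falls were 8.82%, 12.5%, 26.5% and 25.0%. Psmc4 fell from 45.7, 50.9, 52.5 and 52.7 FPKM to 34.8, 41.4, 34.8 and 39.6 FPKM, with no overlap (log2 change -0.41 ± 0.10, limma adjusted p = 0.00544). The remaining 5 did not pass, at log2 changes of -0.23 to 0.24 and limma adjusted p-values of 0.0510 to 0.289. Psmc3 was nearest to the threshold, at 62.4 ± 2.79 and 53.0 ± 3.27 FPKM with no overlap. Psmc1, Psmc2 and Psmc5 lay higher with alcohol and passed as higher on the TPM scale, but changed sign with median-of-ratios scaling.

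A ubiquitin receptor, the lid deubiquitinase and a scaffold were the other falls in the 19S particle. Psmd4, the ubiquitin receptor also called Rpn10, stood at 55.1, 67.0, 69.0 and 71.2 in controls and 41.0, 47.1, 38.0 and 47.9 FPKM under alcohol. All alcohol samples lay below all controls, and the log2 change was -0.58 ± 0.12 (limma adjusted p = 0.00201). Psmd14, the lid deubiquitinase that strips ubiquitin chains (Rpn11), stood at 24.5, 28.1, 27.8 and 25.8 in controls and 18.9, 18.3, 15.2 and 16.8 FPKM under alcohol. It did not overlap either (-0.59 ± 0.10, limma adjusted p = 0.000635). Psmd1, a scaffold of the base, fell from 24.8 ± 1.84 to 19.97 ± 2.43 FPKM (-0.30 ± 0.11, limma adjusted p = 0.0346). Its exons overlap Gm21972 on the same strand. Its call was lost without control replicates 1 or 3, without alcohol replicates 2 or 4 or with these averaged, and on the TPM scale. Psmd2, the other scaffold, stood at 35.0 ± 7.18 and 32.8 ± 2.41 FPKM (limma adjusted p = 0.670).

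Of the 8 lid genes 3 rose and 1 fell, against 44.2% and 13.0% of all genes. With median-of-ratios scaling 1 rose and 2 fell (25.9% and 26.5% of all genes). Psmd8 (Rpn12), whose joining completes the lid, stood at 70.3, 63.3, 68.2 and 57.5 in controls and 101, 101, 89.2 and 106 FPKM under alcohol. All alcohol samples lay above all controls, and the log2 change was 0.61 ± 0.11 (limma adjusted p = 0.00074). Psmd13, a lid scaffold subunit, stood at 39.7, 24.8, 29.5 and 22.7 in controls and 39.3, 50.1, 38.0 and 44.7 FPKM under alcohol. Control replicate 1 lay among the alcohol samples, and the change was 0.57 ± 0.17 (limma adjusted p = 0.0133). Its exons overlap Sirt3 on the opposite strand. Psmd11, another lid scaffold, rose from 20.7 ± 2.40 to 28.1 ± 1.51 FPKM with no overlap (0.43 ± 0.10, limma adjusted p = 0.00533). With median-of-ratios scaling Psmd8 still rose (0.31, limma adjusted p = 0.0239), while Psmd11 and Psmd13 did not pass (0.14 and 0.28). The remaining 4 lid genes, Psmd3, Psmd6, Psmd7 and Psmd12, did not pass, at -0.17 to 0.30. Without control replicate 1 Psmd7 passed as higher (0.39, limma adjusted p = 0.00818), and with median-of-ratios scaling Psmd12 passed as lower (-0.46, limma adjusted p = 0.0037).

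Of the 3 chaperones that assemble the base 2 rose, against 44.2% of all genes. With median-of-ratios scaling or quantile normalization 1 rose (25.9% and 24.1% of all genes). Psmd5 stood at 12.8, 10.5, 9.98 and 9.45 in controls and 15.3, 16.7, 16.5 and 16.2 FPKM under alcohol, with no overlap (0.56 ± 0.10, limma adjusted p = 0.0011). Psmd9 rose from 13.0 ± 0.986 to 16.5 ± 1.24 FPKM (0.32 ± 0.10, limma adjusted p = 0.0154). Psmd10, also known as gankyrin, stood at 4.91 ± 0.616 and 5.53 ± 0.495 FPKM (limma adjusted p = 0.252). The rise of Psmd9 was lost with median-of-ratios scaling and quantile normalization. None of the 4 chaperones of the core passed: Psmg1, Psmg2, Psmg3 and Psmg4 had log2 changes of -0.17 to 0.22 and limma adjusted p-values of 0.107 to 0.981. With the gene length trend removed Psmg2, Psmg3 and Psmg4 passed as higher, at 0.44, 0.37 and 0.45. Psmg2 also passed on the TPM scale (0.37), and Psmg1 was called lower under median-of-ratios scaling (-0.46) and quantile normalization (-0.37). Psmg1 had the highest mean of them, at 19.4 ± 1.19 and 17.1 ± 1.93 FPKM. Psmg3 was next, at 11.9 ± 1.29 and 12.3 ± 1.92 FPKM, close to Psmg4 at 11.9 ± 2.96 and 12.1 ± 3.44 FPKM.

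The activators split by kind, and these kinds also differed in gene length. Psme1, Psme2 and Psme2b were 977 to 1066 bases long, and Psme3 and Psme4 were 4118 and 7649 bases. Psme1 and Psme2 form PA28 alpha-beta, the interferon-inducible cap of the core, and both fell. Psme1 stood at 82.4, 110, 105 and 115 in controls and 65.6, 82.8, 65.6 and 79.8 FPKM under alcohol. Control replicate 1 lay just under alcohol replicate 2, and the log2 change was -0.48 ± 0.13 (limma adjusted p = 0.011). Psme2 stood at 54.8, 64.5, 58.1 and 66.7 in controls and 37.9, 44.3, 32.2 and 38.8 FPKM under alcohol, with no overlap (-0.66 ± 0.12, limma adjusted p = 0.000871). Psme2b, a close copy of Psme2, fell from 22.05 ± 0.877 to 13.4 ± 1.59 FPKM, and how reads were divided between the pair is uncertain. Exons of Psme2b also overlap 9930111J21Rik1 on the same strand, and those of Psme1 overlap Emc9 on the opposite strand. Psme3, the nuclear activator PA28 gamma, which interferon does not induce, moved the other way. It stood at 13.3, 11.5, 10.7 and 11.6 in controls and 17.5, 19.1, 19.4 and 17.6 FPKM under alcohol, with no overlap (0.61 ± 0.10, limma adjusted p = 0.000444). Psme3 rose and Psme2 fell under each of the 18 alternatives run. With the gene length trend removed the fall of Psme1 was lost (-0.17, limma adjusted p = 0.0686).

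Psme4, the single-chain activator PA200, stood at 15.2, 8.82, 9.39 and 8.69 in controls and 14.4, 12.7, 14.4 and 12.8 FPKM under alcohol. Control replicate 1 was above every other sample, and the log2 change of 0.37 ± 0.16 did not pass (limma adjusted p = 0.0649). Without control replicate 1 it was 0.55 and passed (limma adjusted p = 0.000717). Psmf1, the regulator PI31, stood at 9.50 ± 1.12 and 8.36 ± 0.394 FPKM (limma adjusted p = 0.195). Psme3ip1 stood at 8.61 ± 0.869 and 7.47 ± 0.513 FPKM (limma adjusted p = 0.144).

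Gene length moved with these changes. Lengths recovered from the FPKM values had a Spearman rho of 0.50 with the log2 change over the 48 genes and of 0.32 over 9228 genes; these correlations are across genes, which are not independent and share the libraries. Of 27 proteasome genes under 1500 bases 14 fell and none rose, whereas of 21 longer ones 4 fell and 6 rose. Among all tested genes under 1500 bases 27.9% fell and 19.4% rose, against 10.1% and 49.2% of longer ones. Core genes are mostly short and 19S genes mostly longer, so length and role cannot be fully told apart here. The 3 immunoproteasome genes were 1223 to 1281 bases long.

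**Figure D5:**
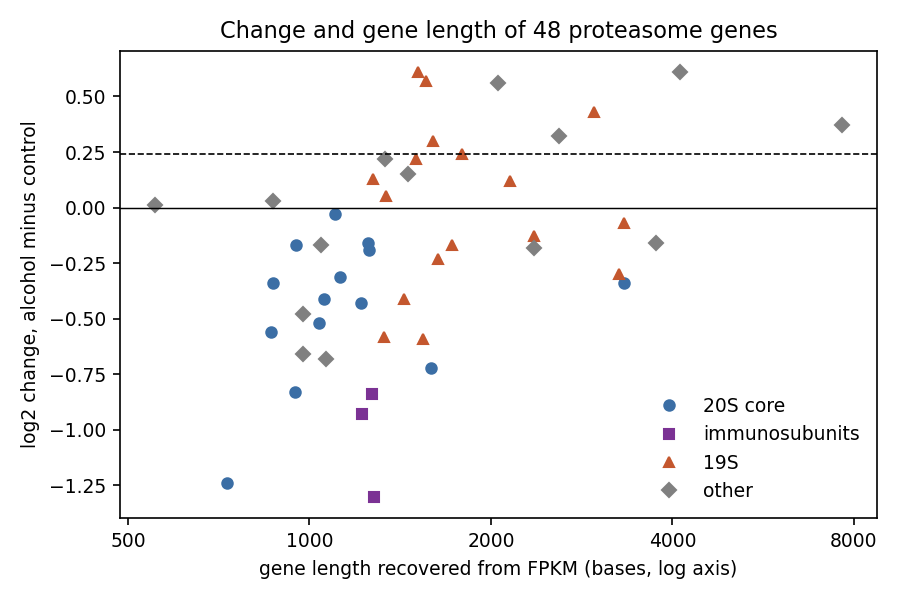
Log2 change (alcohol minus control) against gene length (bases, log axis) recovered from the FPKM values for the 48 tested proteasome genes, coloured by particle. Genes under 1500 bases hold 14 falls and no rise; the dashed line marks 0.24, the median of all genes tested.

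Genes that act on or with the proteasome were read from 3 further lists. Nfe2l1 encodes NRF1, the transcription factor that restores proteasome gene expression when proteasome activity is low. It stood at 12.5 ± 2.48 in controls and 22.7 ± 2.39 FPKM under alcohol, with no overlap (log2 change 0.82 ± 0.14, limma adjusted p = 0.000559), and rose under each of the 5 scalings. Of the 9 genes in the NRF1 list 6 rose and none fell (44.2% and 13.0% of all genes), with a median of 0.69. They included its partner Mafk, from 0.685 ± 0.217 to 2.58 ± 1.11 FPKM, the glycanase Ngly1 that activates it, from 9.51 ± 1.34 to 13.7 ± 0.318 FPKM, and Sel1l, from 15.6 ± 2.90 to 26.0 ± 4.18 FPKM. With median-of-ratios scaling 4 rose and 1 fell (25.9% and 26.5% of all genes).

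Of 17 tested proteasome partners 10 (58.8%) rose and 1 fell, against 44.2% and 13.0% of all genes, with a median of 0.52. Shuttle proteins that carry ubiquitin-tagged substrates to the proteasome were among them. Ubqln4 rose from 5.72 ± 0.938 to 11.3 ± 0.697 FPKM, Ubqln2 from 4.44 ± 0.932 to 8.01 ± 0.649 FPKM and Rad23b from 46.7 ± 2.96 to 67.7 ± 1.10 FPKM. Zfand5, a zinc finger protein that stimulates the 26S particle, rose from 4.50 ± 0.302 to 10.7 ± 1.44 FPKM. The fall was Usp14, a deubiquitinase bound to the 19S base, from 9.41 ± 0.416 to 7.63 ± 0.617 FPKM. Pomp, the chaperone that matures the beta rings, stood at 146 ± 6.92 and 122 ± 17.8 FPKM and did not pass (limma adjusted p = 0.0786). With median-of-ratios scaling 7 partners rose and 5 fell (25.9% and 26.5% of all genes). Of the 4 ubiquitin precursor genes only Rps27a, which also encodes a ribosomal protein, rose, from 184 ± 19.01 to 279 ± 78.1 FPKM, and with median-of-ratios scaling it did not pass.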

How the data were processed

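RNA was sequenced from 4 control and 4 alcohol samples labelled as mouse liver. The deposited values are FPKM, made by the authors, per the labels. The submitters' processing notes name GRCm38 and mm10; for the aligner, counter, annotation and strand, the tools were not given in the sources used here. FPKM divides each library by its own total. Whole reads were recovered for 99.98% of 21049 genes (tolerance 1e-06 of a read) and used for depth, lengths and 1 alternative test. They covered at least 99.95% of each library total.

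The alcohol and control samples entered a 2-sided limma fit (version 3.58.1; R 4.3.3) of log2(FPKM + 1). It covered the 9228 genes whose mean reached 1 FPKM, with Benjamini-Hochberg adjustment over all of them at 0.05. A log2 change is on that scale and understates the change of low genes. Ratios were compared by exact permutation over 70 assignments. The method was tested on simulated data with as many rises as falls and no length trend, so that test does not address the scaling. Alternatives were other scalings, pseudocount 0.1, no filter, limma-voom on recovered reads, a replicate block and leaving out samples. The members and lists were chosen with earlier results of these data known. Values in every sample are given for the catalytic and PA28 genes; in other roles up to 3 genes past the threshold in each direction are named, or the 2 most abundant, and in each list up to 4 by smallest p. Psma3, Irf1, Irf2, Irf9, Ifngr2, Tap1, Usp14, Stab2, Cps1 and genes named as not passing were named after their values were seen. Positions and exon overlaps are from GENCODE M21, which matched 49 of 50 symbols, and promoters from RefSeq, which matched 42. Values of some listed genes are not reported here.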

Additional observations from a re-analysis of the deposited data

Results flagged for a closer look

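In 106 groups of 4 values (50 genes and 3 ratios in each group) 3 held a sample far from the other three by Dixon's test, where chance gives about 1 in 20. Psme4 stood at 15.2 FPKM in control replicate 1, above the other controls. Psmb2 stood at 60.2 FPKM in control replicate 1, below the other controls. Psmc1 stood at 55.2 FPKM in alcohol replicate 3, below the other alcohol samples.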

How the results depend on the processing

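Of the 24 proteasome genes called, 16 (13 lower, 3 higher) kept their call under all 18 alternatives (scaling, length trend, pseudocount, filter, voom, block and averaged or left-out samples), and no call changed direction. Rises numbered 6 with the deposited values, 12 on the TPM scale, 15 with the gene length trend removed and 3 with median-of-ratios scaling, where falls went from 18 to 31. Over all genes, rises went from 4080 to 2386 with median-of-ratios scaling and 2221 with quantile normalization, and falls from 1203 to 2446 and 2307. Both settings centre the samples by construction. Leaving out 1 sample gave 6 to 9 rises and 16 to 20 falls among proteasome genes (9 and 20 without control replicate 1), and 3537 to 4362 rises and 1000 to 1278 falls over all genes. The length trend, voom and leaving out alcohol replicates 2 and 4 together were chosen after seeing the data. Without that pair there were 5 rises and 19 falls, and voom gave 6 and 18.

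The ratios kept their direction. Without 1 sample they ran from -0.63 to -0.55 (Psmb8 over Psmb5), -1.09 to -0.87 (Psmb9 over Psmb6) and -0.49 to -0.39 (Psmb10 over Psmb7), where the smallest possible permutation p is 0.0571. With alcohol replicates 2 and 4 averaged they were -0.58, -0.93 and -0.44, at the same exact p. With a replicate block the ratios were -0.59, -0.98 and -0.44, each at an exact p of 0.125, the smallest for 4 pairs. The labels share numbers across groups, but same-numbered samples had deviations correlated at 0.349, 0.216, 0.071 and 0.28, so the numbers were not taken as a pairing. The block gave 7 rises and 20 falls, with Psmb5 and Psmb6 passing as lower (limma adjusted p = 0.0347 and 0.0257) and Psme4 as higher (0.0264). Not every sample correlated best with its own number. The planned edgeR test was not run, because the values are FPKM; voom on recovered reads took its place.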
